A study of Mus musculus with 7 samples.

Results

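Fos binding was described around 9 genes of classical histone deacetylases, chosen by symbol with no threshold on a measured value: Hdac1, Hdac2, Hdac3, Hdac4, Hdac5, Hdac7, Hdac9, Hdac10 and Hdac11. They are 9 of the 21896 protein-coding genes of the RefSeq gene table used here. The family members Hdac6 and Hdac8 are not among the 9 and were counted with the other lysine deacetylases. A peak was counted for a gene when it lay within 10 kb of the gene's span on GRCm38, the assembly that mm10 names, so the gene and 10 kb on each side form its window. The data were lists of peaks from chromatin immunoprecipitation and sequencing (ChIP-seq) against Fos, a product of an immediate early gene that pairs with Jun proteins to form AP-1 and is induced in neurons by intense firing. The tissue was whole hippocampus of wild-type C57BL/6J mice aged 2 months. The control group (3 libraries) received saline (PBS). The kainic acid group (3 libraries) received this agonist of glutamate receptors into the peritoneum as 2 injections of 10 mg/kg given 30 min apart, and mice whose seizures had reached level 4 were killed 1 hour after the first injection. The labels give neither the number of animals in a library nor the sex, so the spread between libraries may be technical in part. In whole tissue, more cells with Fos at a site and more Fos per cell cannot be told apart.

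Histone deacetylases remove acetyl groups from lysines and in most settings make chromatin less permissive for transcription. The class I enzymes Hdac1, Hdac2 and Hdac3 are nuclear catalytic subunits of large corepressor complexes. The class IIa proteins Hdac4, Hdac5, Hdac7 and Hdac9 bind MEF2 transcription factors and leave the nucleus when calcium-activated kinases phosphorylate them, which ties them to neuronal activity. Hdac10, of class IIb, acts on polyamines, and Hdac11 is the single class IV member.

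The 6 lists differed greatly in length, which bears on every count given here. Kainic acid replicates 1, 2 and 3 held 15009, 63197 and 29650 peaks, and saline replicates 1, 2 and 3 held 7, 3277 and 2. Saline replicates 1 and 3 had no peak near any of the 9 genes. All saline values therefore rest on replicate 2. At least 1 peak within 10 kb was found for 4, 6 and 5 of the 9 genes in kainic acid replicates 1, 2 and 3, against 26.5%, 60.2% and 40.8% of all protein-coding genes. In saline replicates 1, 2 and 3 it was 0, 5 and 0 of the 9, against 0.0137%, 17.0% and 0%. As a check of the tissue, 9 of 10 genes of neurons had a Fos region in at least 2 kainic acid lists within 10 kb, with 35 at Grin2b and 31 at Syt1, against 3 of 10 genes of liver and 40.0% of all protein-coding genes. Long windows hold more regions, and windows under 50 kb made up 4 of the 10 for neurons and 8 of the 10 for liver, so the lists also differ in gene length.

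Across the 9 genes, the 4 class IIa members had 79 of the 87 kainic acid peaks, 90.8%, and they make up 86.9% of the sequence searched. The 3 class I members had 6, or 6.90%, in 8.82% of the sequence. In these pooled counts, where a site found in several lists counts more than once, the shares of peaks and of sequence were alike. All 6 class I peaks were in kainic acid replicate 2. Within class IIa the peaks were uneven: in that list Hdac5 had 20.2 per 100 kb of window and Hdac9 had 1.91. Kainic acid replicates 1, 2 and 3 had 13, 49 and 25 peaks near the 9 genes. As shares of the list these were 0.0866% (95% Clopper-Pearson interval 0.0461 to 0.148), 0.0775% (0.0574 to 0.102) and 0.0843% (0.0546 to 0.124), so the family took a like share of each kainic acid list. Saline replicate 2 had 9 peaks, 0.275% of its list (0.126 to 0.521), and 5 of these 9 were at Hdac5. These intervals cover counting error only.

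Overlapping peaks of all lists were merged into regions, and a region found in 2 or 3 of the kainic acid lists is called a kainic acid region. There were 20 of these near the 9 genes, among 26862 in the genome. Hdac9 had 9, Hdac5 had 7, Hdac4 had 2, and Hdac7 and Hdac11 had 1 each, while Hdac1, Hdac2, Hdac3 and Hdac10 had none. Thus 5 of 9 members had a region. Among all protein-coding genes it was 40.0%, but the share rises with length, from 28.6% for windows under 50 kb to 57.0% for 50 to 200 kb and 88.5% for windows over 200 kb. All 4 class IIa genes have windows above 50 kb, and the 4 members without a region have windows under 50 kb. Leaving out kainic acid replicate 1, 2 or 3 gave 17, 9 and 10 regions. A region then had to be in both remaining lists, which is stricter than 2 of 3, so a fall is in part built in.

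Replicate support was close to that of the genome. Of 57 regions near the 9 genes with a peak in any kainic acid list, 8 were in all 3 lists, 12 in exactly 2 and 37 in 1, so 35.1% were in at least 2 lists, against 40.3% of the 66683 such regions in all. The 8 regions in all 3 lists were at Hdac9 (5), Hdac5 (2) and Hdac7 (1). No kainic acid region near a member overlapped the span of another protein-coding gene, and 18 of the 20 overlapped the member's own span. None of the 20 came within 1 kb of a listed RefSeq start, against 10.1% of the kainic acid regions in the genome. With so few regions, none is not far from that share. The list of starts also has gaps: a region of Hdac4 covered the upstream end of that gene's span, which is not a listed start. The gene table has no exons, so a position inside a span is not assigned to exon, intron or UTR here. Median width was 697 bp for these regions and 686 bp for all kainic acid regions.

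**Figure D1:**
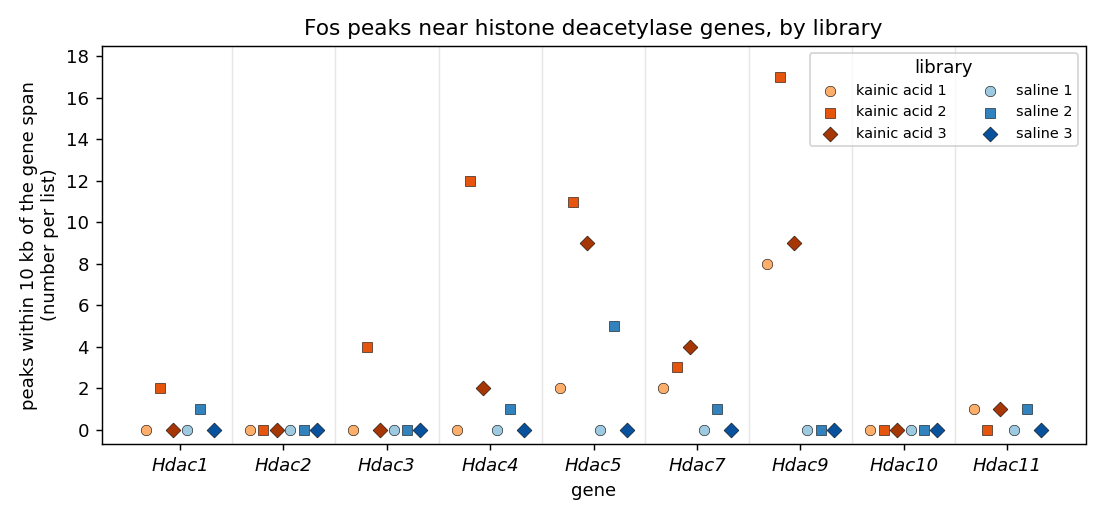
Number of Fos peaks within 10 kb of each gene (y axis) for the 9 histone deacetylase genes (x axis), 1 point per library. Hdac9 had 8, 17 and 9 peaks in the kainic acid lists and 0 in each saline list, Hdac5 had 5 peaks in saline replicate 2, and Hdac2 and Hdac10 had none in any list.

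Kainic acid and saline were compared gene by gene as the number of peaks per list, by exact permutation of the libraries (20 assignments, two-sided), done for every protein-coding gene and adjusted after Benjamini and Hochberg over all of them. With 3 libraries against 3 the smallest possible p is 0.1, so no gene could pass 0.05, and 0 of 21896 did before or after adjustment. The mean was higher with kainic acid at 7 of the 9 genes, against 59.0% of all genes, and lower at none, against 1.98% of all genes. Hdac2 and Hdac10 had 0 in both groups. With equal numbers of kainic acid peaks, the 15009 of highest fold from each list, the mean was higher at 3 of the 9. The share of all genes at that setting is not given here, so whether this fall is particular to the members cannot be said. Every kainic acid list had more peaks than every saline list at 2 of the 9, Hdac9 and Hdac7 (1 when only peaks overlapping the gene were counted, 0 for peaks with −log10 q from 10 up). That was so for 20.7% of all genes, and by window length for 11.3% (under 50 kb), 32.1% (50 to 200 kb) and 74.8% (over 200 kb). The members' counts stand near these backgrounds.

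Hdac9, a class IIa protein that is also made in a short form without the catalytic domain, had the most kainic acid regions. It is the longest member, at chr12:34047580-34917095, a span of 870 kb on the minus strand. It had 8, 17 and 9 peaks in kainic acid replicates 1, 2 and 3, and 0 in each saline library. The groups did not overlap. The mean was 11.3 ± 4.93 peaks (SD, n = 3) with kainic acid against 0 (exact permutation p = 0.1, adjusted p = 0.484 over all genes). Per 100 kb of window it had 1.01 kainic acid regions, more than 46.1% of the genes with windows over 200 kb, whose median was 1.17. Its number of regions was thus large and its density ordinary for a gene of this length.

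The kainic acid regions of Hdac9 fell into groups separated by long stretches without such a region. These stretches were not empty of peaks, since the gene had another 10 regions, each in 1 kainic acid list. A pair in all 3 kainic acid lists, at chr12:34495943-34496700 and chr12:34498102-34499387, lay 1.40 kb apart, 32.6 and 30.1 kb downstream of the gene's internal RefSeq start. The first of them had the best mean rank of the gene. Its fold, the authors' value for the peak over local background within that list, was 4.55, 8.62 and 6.11 in kainic acid replicates 1, 2 and 3. The fold percentile, the share of a list's peaks with a higher fold, was 45.0, 8.67 and 13.2, where 0 is the strongest peak. Reads piled up at the summit numbered 20, 34 and 33, as solved from the deposited fold and p. The second of the pair had folds of 4.67, 6.71 and 5.82 and percentiles of 39.8, 17.7 and 15.5. Both thus had folds above the median of each list.

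A further group of 4 regions, spaced 1.83 to 6.40 kb apart, lay 156 to 170 kb downstream of the upstream start. Its strongest, chr12:34747245-34747872, was in all 3 lists with folds of 4.63, 8.37 and 5.22 (percentiles 41.9, 9.26 and 22.4). The other 3, at chr12:34751080-34751751, chr12:34753578-34754025 and chr12:34760429-34761217, were each in 2 lists and ranked lower, with mean percentiles of 88.3, 60.3 and 82.5. Single regions in all 3 lists lay at chr12:34664716-34665233, with percentiles of 76.3, 68.2 and 81.9, and at chr12:34823115-34823683, with 86.9, 64.6 and 12.6. The last of these ranked low in replicates 1 and 2 and was among the stronger peaks of replicate 3. The remaining region, chr12:34075994-34076433, was 841 kb from the upstream start, near the far end of the gene, with percentiles of 13.8 and 37.4 in replicates 2 and 3. A stretch of 420 kb without a kainic acid region separated it from the pair downstream of the internal start. Without kainic acid replicate 2, when both remaining lists were required, the gene kept 5 regions.

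**Figure D2:**
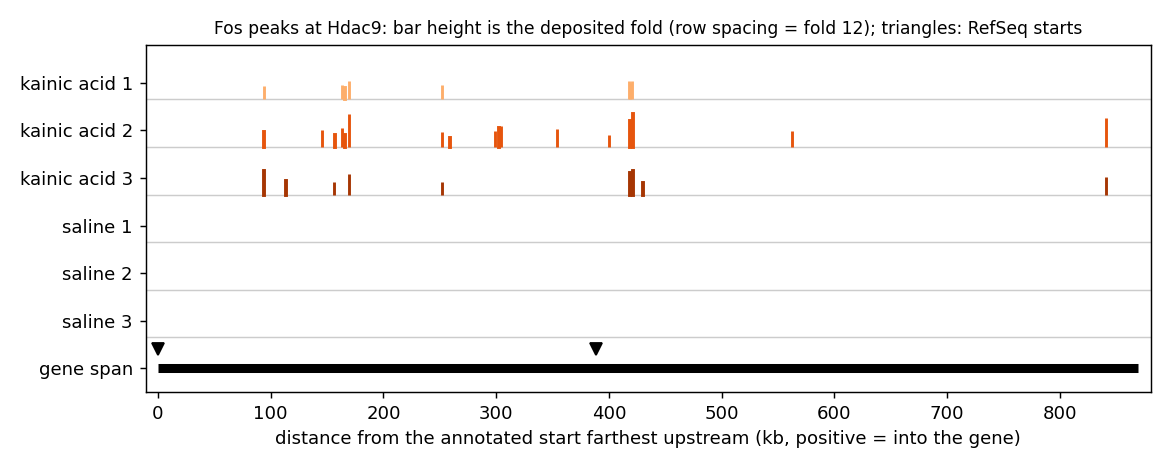
Peaks along Hdac9, 1 row per library, against the distance in kb from the RefSeq start farthest upstream (triangles mark both starts, bar height is the deposited fold). The 5 regions shared by all 3 kainic acid lists stand in the body of the gene, the pair downstream of the internal start among them, and the saline rows are empty.

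Neither RefSeq start of Hdac9 had a peak in any list. The 250 bases before the internal start (GRCm38.p6, chr12:34528890-34529139, minus strand, from the RefSeq promoter table) are shown because they hold the only AP-1 motif found upstream of a member's start. The motif searched was TGANTCA, which reads the same on both strands, and it is set in capitals. It is at position −57 from the start.

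Hdac9 internal start: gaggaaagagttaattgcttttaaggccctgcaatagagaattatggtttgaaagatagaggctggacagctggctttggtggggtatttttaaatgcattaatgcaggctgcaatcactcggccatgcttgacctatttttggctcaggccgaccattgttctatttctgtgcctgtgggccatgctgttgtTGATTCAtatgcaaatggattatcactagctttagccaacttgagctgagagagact

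At least 1 such motif occurred in 7.81% of the 32851 promoter windows of 300 bases in the table and in 2 of the 10 windows of the 6 members listed there, the other one lying after a start of Hdac7. The cyclic AMP response element TGACGTCA, found in 1.79% of all windows, was in none of the 10. A match is a string of letters and no measured site. The regions themselves could not be searched, because no genome sequence was used here.

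Hdac5, the class IIa enzyme best known in the hippocampus for leaving the nucleus on activity, had the densest Fos regions of the family. The gene lies at chr11:102195747-102230172 on the minus strand, a span of 34.4 kb. It had 2, 11 and 9 peaks in kainic acid replicates 1, 2 and 3, and 0, 5 and 0 in the saline replicates. The groups overlapped, since saline replicate 2 exceeded kainic acid replicate 1. The means were 7.33 ± 4.73 and 1.67 ± 2.89 (SD, n = 3 each; exact permutation p = 0.2, adjusted p = 0.878 over all genes).

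Its 7 kainic acid regions amounted to 12.9 per 100 kb, above 99.5% of all protein-coding genes and 99.8% of those with windows of 50 to 200 kb, whose median was 1.01. They lay within 34.1 kb, with a median gap of 3.21 kb and a widest gap of 14.0 kb. Neighbouring genes Lsm12 and G6pc3 reach into the window, but none of the 7 regions overlapped them. Leaving out kainic acid replicate 1, 2 or 3, with both remaining lists required, gave 7, 2 and 2 regions. Without replicate 2 and without replicate 3 the density stood above 95.1% and 94.5% of all genes. With equal numbers of kainic acid peaks, the 15009 of highest fold from each list, 5 regions were left and the density stood above 99.6% of all genes.

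**Figure D3:**
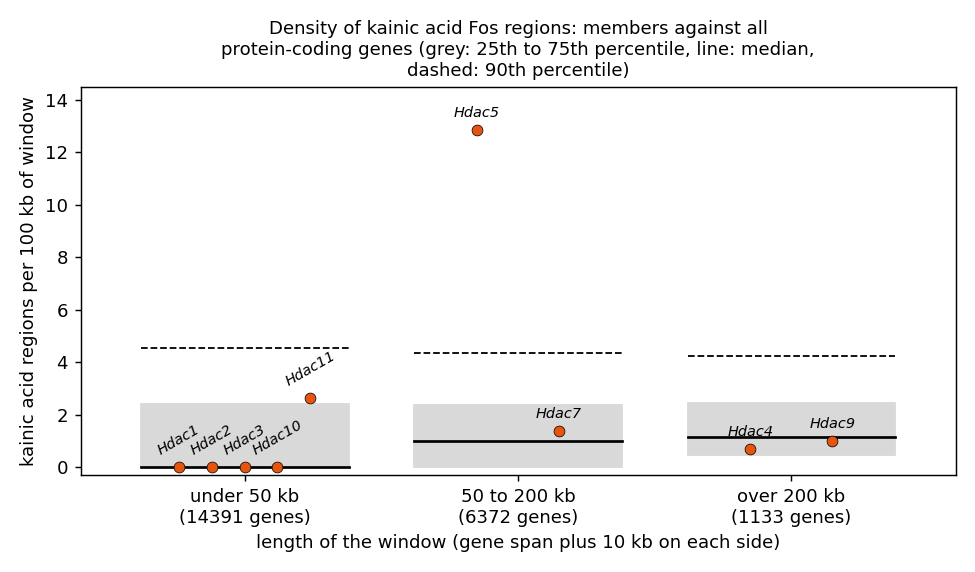
Kainic acid regions per 100 kb of window (y axis) for the 9 genes (points) beside all protein-coding genes of 3 window lengths (grey box from the 25th to the 75th percentile, line at the median, dashed line at the 90th percentile). Hdac5, at 12.9, is the one member above the 90th percentile of its length class, and Hdac9 and Hdac4 lie inside the boxes.

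Along Hdac5 the regions ran from 2.05 kb after the start to just past the far end. The region with the highest fold in kainic acid replicate 2, chr11:102195805-102196692, lay just inside the far end of the gene. It had folds of 9.07 and 4.45 in kainic acid replicates 2 and 3 (percentiles 7.32 and 36.4) and no peak in replicate 1. The first of 2 regions in all 3 lists, chr11:102216063-102217210, lay 13.5 kb downstream of the start with folds of 3.76, 8.31 and 5.10 in replicates 1, 2 and 3 (percentiles 74.7, 9.78 and 24.3). The other, chr11:102225035-102225756, lay 4.78 kb downstream with folds of 3.25, 6.11 and 2.85 (percentiles 90.7, 22.2 and 93.3). Both ranked higher in replicate 2 than in replicate 1. The 4 regions left were in kainic acid replicates 2 and 3 and not in replicate 1. Those at chr11:102201166-102202069 and chr11:102227709-102228532 had mean percentiles of 26.2 and 25.5, and those at chr11:102194453-102194992 and chr11:102218855-102219523 had 71.9 and 78.7.

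**Figure D4:**
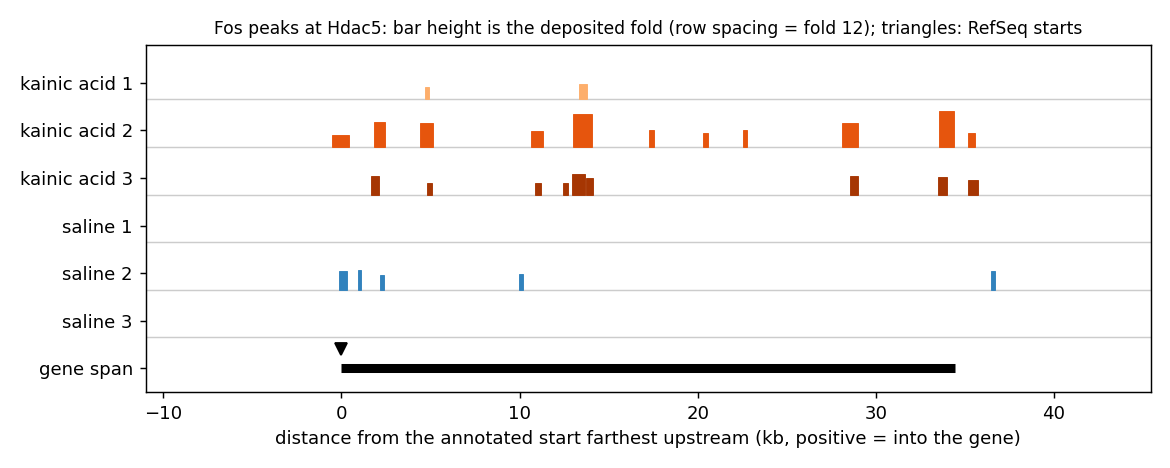
Peaks along Hdac5, 1 row per library, against the distance in kb from the RefSeq start (triangle; bar height is the deposited fold). Kainic acid replicate 2 has peaks along the whole gene, while replicate 3 has none from 14.1 to 28.6 kb. Replicate 1 has 2, and 3 of the 5 peaks of saline replicate 2 lie within 2.41 kb of the start.

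Saline replicate 2 was also dense at Hdac5: only 28 of 21896 genes had 5 or more of its peaks in their window, and 83.0% had none. One of the 5 peaks, chr11:102229888-102230325, covered the annotated start, with a fold of 4.67 and a summit at position −42 from the start. At the same place kainic acid replicate 2 had its peak chr11:102229737-102230676, with a fold of 3.07 (percentile 92.5) and a summit at position −185, and replicates 1 and 3 had none. Another, chr11:102227764-102227981, lay inside a kainic acid region, the only one of the 20 that had a saline peak. The other 3, at chr11:102193489-102193690 (in G6pc3), chr11:102219968-102220215 and chr11:102229057-102229264, met no kainic acid peak.

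The 250 bases before the Hdac5 start (GRCm38.p6, chr11:102230173-102230422, minus strand) are shown because both groups had a peak there. They hold neither TGANTCA nor TGACGTCA, so no letters are set in capitals. Of the bases, 60.8% are G or C, against a median of 52.4% over all windows' upstream parts.

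Hdac5 start: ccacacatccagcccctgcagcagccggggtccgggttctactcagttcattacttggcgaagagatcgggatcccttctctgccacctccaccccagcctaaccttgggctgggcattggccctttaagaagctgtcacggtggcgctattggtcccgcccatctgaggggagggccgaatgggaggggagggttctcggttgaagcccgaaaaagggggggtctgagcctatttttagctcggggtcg

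Hdac7, a class IIa enzyme known from thymocytes and blood vessels, lies at chr15:97792661-97844502 on the minus strand. It had 2, 3 and 4 peaks in kainic acid replicates 1, 2 and 3, and 0, 1 and 0 in the saline replicates, so the groups did not overlap. The means were 3.00 ± 1.00 and 0.333 ± 0.577 (SD, n = 3 each; exact permutation p = 0.1, adjusted p = 0.484 over all genes). When only peaks overlapping the gene itself were counted, the groups overlapped and p was 0.2. A single region was shared, chr15:97824412-97825706, in all 3 kainic acid lists. It had folds of 3.93, 9.80 and 5.12 (percentiles 67.1, 5.70 and 24.1) with 27, 82 and 43 reads at the summit. Being in all 3 lists, it had to remain when any 1 kainic acid library was left out, so that setting is no check of it. It held with −log10 q of at least 10. The other kainic acid peaks were in 1 kainic acid list each. Those nearest to starts were chr15:97832225-97832515 in kainic acid replicate 2, 458 bases before an internal start with a fold of 5.94, and chr15:97844941-97845338 in replicate 3, 439 bases before the upstream start with a fold of 5.16. The saline replicate 2 peak, chr15:97828325-97828600, was weak for its list (fold 3.09, percentile 93.6) and met a peak of kainic acid replicate 3.

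Hdac4, the class IIa protein tied to synaptic gene repression, lies at chr1:91928779-92195702 on the minus strand, a span of 267 kb. It had 0, 12 and 2 peaks in kainic acid replicates 1, 2 and 3, and 0, 1 and 0 in the saline replicates. The groups overlapped, and replicate 2 alone gave 12 of its 14 kainic acid peaks. The means were 4.67 ± 6.43 and 0.333 ± 0.577 (SD, n = 3 each; exact permutation p = 0.4, adjusted p = 1 over all genes). Its 2 kainic acid regions gave 0.697 per 100 kb, more than 34.2% of the genes of its length class. One, chr1:92195578-92196551, covered the upstream end of the span, 15.7 kb before the listed RefSeq start. Its fold was 10.4 in replicate 2, a percentile of 4.78, but 2.31 in replicate 3, a percentile of 99.4. The 2 lists thus ranked the same place near their opposite ends. The other, chr1:91923333-91923840, lay 4.94 kb past the far end, with folds of 3.70 and 3.92. The saline peak, chr1:92180781-92181041, lay 440 bases before the listed start and touched a weak peak of kainic acid replicate 2.

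Hdac11, which removes long-chain acyl groups from lysines, lies at chr6:91156670-91174692 on the plus strand. It had 1, 0 and 1 peaks in kainic acid replicates 1, 2 and 3, and 0, 1 and 0 in the saline replicates. The means, 0.667 ± 0.577 and 0.333 ± 0.577 (SD, n = 3 each; exact permutation p = 1, adjusted p = 1 over all genes), differed by less than the spread. The kainic acid region, chr6:91158298-91158796, lay 1.73 kb downstream of the start with folds of 4.56 and 3.96 (percentiles 43.1 and 51.9) in replicates 1 and 3. It was absent from the longest list, that of replicate 2, while its summits in the other lists had 18 and 19 reads. The region rests on peaks being merged at 1 bp of overlap. When peaks were joined only if their summits lay within 200 bp, Hdac11 had 0 kainic acid regions. With equal numbers of kainic acid peaks it also had 0. The saline peak, chr6:91156723-91157019, covered the start itself, where no kainic acid list had a peak. Its fold was 4.16, with a summit 44 bases past the start. The 250 bases before that start (GRCm38.p6, chr6:91156565-91156814, plus strand) are shown as the one member promoter with a peak in saline alone. They likewise hold neither motif, and 65.2% of their bases are G or C.

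Hdac11 start: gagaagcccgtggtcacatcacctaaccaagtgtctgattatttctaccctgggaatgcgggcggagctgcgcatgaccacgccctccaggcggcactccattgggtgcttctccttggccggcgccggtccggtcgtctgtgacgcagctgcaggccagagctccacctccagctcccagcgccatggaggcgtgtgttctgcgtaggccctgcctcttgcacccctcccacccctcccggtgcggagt

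Of all 32851 promoter windows, peaks of saline replicate 2 overlapped 4.53%, and those of kainic acid replicates 1, 2 and 3 overlapped 1.19%, 10.7% and 3.49%. Among the 10 windows of members, saline replicate 2 had peaks at those of Hdac5 and Hdac11, kainic acid replicate 2 at that of Hdac5, and replicates 1 and 3 at none. More widely, 5 of the 9 saline regions near members were within 1 kb of a listed start, against 59.5% of this list in all. A kainic acid peak lay at 5 of the 9, against 32.6% of all regions of saline replicate 2.

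The kainic acid peaks of the class I genes were all in the longest list, that of replicate 2. Per 100 kb of window that list had 10.5 peaks at Hdac3, 4.3 at Hdac1 and 0 at Hdac2. For class IIa it had 4.18 at Hdac4, 4.18 at Hdac7, 1.91 at Hdac9 and 20.2 at Hdac5. Hdac1 (chr4:129516104-129542646), a catalytic subunit of the Sin3, NuRD and CoREST complexes, had 0, 2 and 0 peaks in kainic acid replicates 1, 2 and 3, and 0, 1 and 0 in saline. Both of its kainic acid peaks lay outside the gene, in its neighbour Marcksl1. The stronger of them, chr4:129513073-129513671, had a fold of 10.5, a percentile of 4.66 in that list. It overlapped a listed RefSeq start, which is not one of Hdac1, as that gene has no listed start. The weaker, chr4:129514507-129514803, with a fold of 4.47, met the saline replicate 2 peak chr4:129514408-129514781, with a fold of 4.20. Without kainic acid replicate 2 the mean difference of Hdac1 turned from 0.333 to −0.333 peaks.

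Hdac3 (chr18:37936971-37955015), the catalytic subunit of nuclear receptor corepressor complexes, had 0, 4 and 0 peaks with kainic acid and none with saline. Of the 4, only chr18:37949481-37949747 lay in the gene, with a fold of 3.70. Another 2 lay in Diaph1, and chr18:37956710-37956990, with a fold of 5.23 and a percentile of 32.7, lay in Rell2. Hdac2 (chr10:36974297-37001889), the close relative of Hdac1 that has been linked to memory, had no peak in any list, and neither had Hdac10 (chr15:89123303-89128700). No peak in any list was the case for 37.1% of all genes, and for 47.6%, 19.2% and 5.30% of those with windows under 50 kb, of 50 to 200 kb and over 200 kb. A list without a peak shows that none was called there, and not that Fos is absent.

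**Figure D5:**
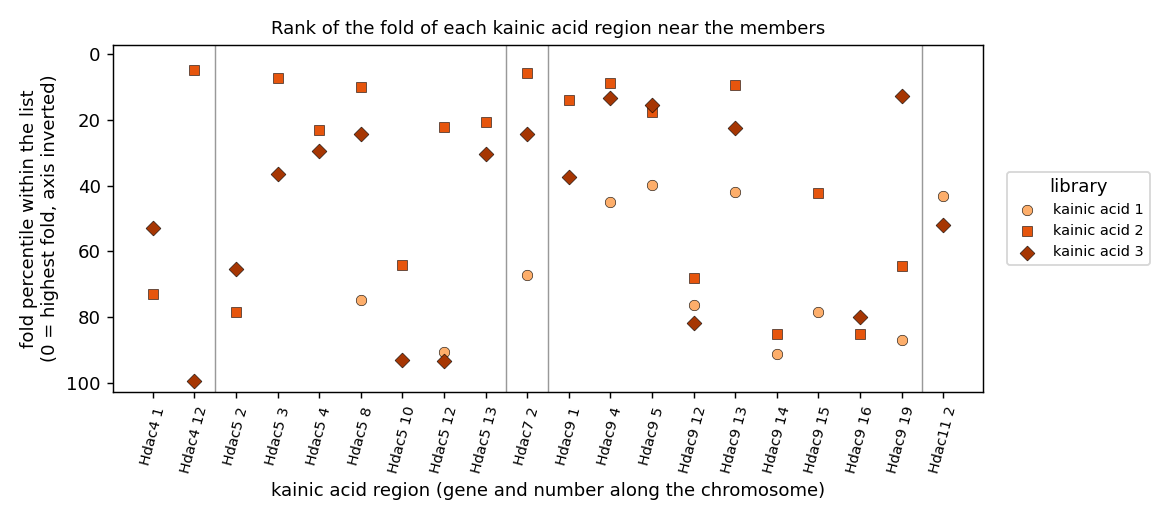
Fold percentile of each of the 20 kainic acid regions (y axis, inverted, 0 is the highest fold of a list) in the lists that have it, ordered by gene and numbered along the chromosome among all regions of that gene. Percentiles run from 4.78 to 99.4 in all, and those of replicate 1 run from 39.8 to 91.4.

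The members' regions were compared with all kainic acid regions by their rank within a list. The median fold percentile was 74.7 in kainic acid replicate 1 (11 regions), 22.2 in replicate 2 (19) and 36.9 in replicate 3 (18). For all kainic acid regions it was 46.9, 24.3 and 43.8. The highest rank of any peak near a member was the percentile of 4.66 in the Hdac1 window. That peak lay in Marcksl1, was in replicate 2 alone and is not a kainic acid region. In replicate 1 the regions near members thus ranked lower than kainic acid regions did in general, and in replicates 2 and 3 somewhat higher. These medians have no test, because regions near 1 gene are not independent.

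Other genes of lysine acetylation were counted as fixed lists. Of the other 9 lysine deacetylases, 5 had a kainic acid region. Sirt4, a mitochondrial sirtuin, had 5 regions, and the class I gene Hdac8 had 1. Per 100 kb of window Sirt4 had 15.5, more than the 12.9 of Hdac5, so a density this high is not particular to Hdac5. Among 27 subunits of the corepressor complexes that hold class I enzymes, 16 had one, with 7 at Ncor1, a scaffold that binds Hdac3. Among 11 MEF2 genes and class IIa kinases, 9 had a region, with 20 at Sik3 and 12 at Sik2, kinases that keep class IIa proteins in the cytoplasm. Of 9 acetyltransferases, 8 had a region, with 9 at Kat6b and 3 at Kat2b. The background is the 40.0% of all genes given above. By window length it is 28.6% (under 50 kb), 57.0% (50 to 200 kb) and 88.5% (over 200 kb). Windows under 50 kb made up 8 of 9, 10 of 27, 3 of 11 and 3 of 9 in the order of the lists, so 40.0% does not suit each list alike. Counts for which every kainic acid list exceeded every saline list were 2 of 9, 7 of 27, 6 of 11 and 4 of 9 in the same order, beside 20.7% of all genes. The lists differ in gene length, and no test of the lists was made.

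The 3 genes most like Hdac9, by the Euclidean distance of log2(peaks per 100 kb + 1) over the 6 lists, were Cdk6 (0.0588), Cep192 (0.0589) and Lrrc9 (0.0615). They had 2, 4 and 2 peaks (Cdk6), 1, 2 and 1 (Cep192) and 1, 2 and 1 (Lrrc9) in kainic acid replicates 1, 2 and 3, and none in saline. Their windows are shorter than that of Hdac9, so the likeness rests on few peaks.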

How the data were processed

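The deposited files were 6 narrowPeak lists, 1 per library (3 kainic acid, 3 saline), and the input library was not used here. Per the submitters' processing notes, Trim Galore 0.6.4, Bowtie2 2.3.4.3, MACS2 and deepTools 3.5.0 were used with the mm10 build; the control and threshold of peak calling are not given in the sources used here. The authors' files hold, per peak, a fold ratio over local background, −log10 p and q-values, a score (10 times the −log10 q, cut to a whole number), and a summit offset. These values are not scaled between libraries, so they served only to rank and filter peaks within a list.

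Peaks overlapping by at least 1 bp were merged over the 6 lists. Gene spans came from the RefSeq gene table and promoters from the RefSeq promoter table, both GRCm38.p6; 6 of the 9 genes had promoter windows (10 windows of 300 bases, 250 before and 50 after a start). Python 3.11.15, numpy 2.4.6, pandas 2.3.3 and scipy 1.17.1 were used. The scripts were tested on simulated data. The 9 genes are all named, and other genes only as lists with examples among those with most regions (1 list gene is not reported here by name); the members and lists were chosen with earlier results of these data known. The 3 genes like Hdac9 were taken by smallest distance. Summit reads were solved from fold and p for 94 of 94 peaks in the regions. Replicates share numbers 1 to 3 between groups, but nothing in the labels ties a number to an animal, litter or day, and the 2 saline lists with almost no peaks allow no check of pairing. The density percentiles under other settings were added after seeing the data.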

Additional observations from a re-analysis of the deposited data

How the results depend on the processing

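Of 310 values recomputed under alternatives, 202 stayed the same by the criteria used, 98 moved, 8 became weaker, 1 became stronger and 1 reversed. The 20 kainic acid regions became 31 within 50 kb, 11 at −log10 q from 5 up and 6 from 10 up. They became 11 with equal numbers of kainic acid peaks (15009 per list), 8 when all 3 lists were required and 57 when any list sufficed. When peaks were joined by summits within 200 bp, in place of 1 bp of overlap, there were 16 regions at 4 genes. At that setting Hdac9 had 9, Hdac5 had 5, Hdac4 and Hdac7 had 1 each and Hdac11 had 0. Leaving out 1 kainic acid library, with both remaining lists required, gave 9 to 17. The 5 genes with a region became 8 within 50 kb, and 3 with equal numbers, in all 3 lists or at −log10 q from 10 up, and 3 to 4 with 1 library left out. The 2 genes whose groups did not overlap became 1 with peaks in the span alone and 0 at −log10 q from 10 up, and 2 to 4 with 1 library left out (4 without kainic acid replicate 1, 3 without saline replicate 2). The 7 genes with a higher kainic acid mean became 3 with equal numbers and 5 to 7 with 1 library left out. For these counts of genes, the shares of all genes under the other settings are not given here. The difference at Hdac1 (0.333 peaks) reversed to −0.333 without kainic acid replicate 2 and ran up to 0.667 with another library left out. With the replicate block, the count of higher means was 7, and p was 0.25, the smallest it allows, for Hdac5, Hdac7 and Hdac9. The share of genes less dense than Hdac5 ran from 94.5% to 99.6% over all settings run. List length limits every comparison with saline: replicates 1 and 3 hold 7 and 2 peaks. The causes of these shifts were not tested.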
